A study of Mus musculus with 14 samples.

Results

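The effect of Aoah overexpression common to a pair of mouse liver tumour models was measured by bulk RNA sequencing of 14 tumours, 7 with Aoah and 7 with the empty vector. All 14 tumours of the study entered the comparison, and each tumour was placed by its label. The tumours arose in C57BL/6 mice after plasmids were delivered to the liver by hydrodynamic tail-vein injection together with the SB100 transposase, which inserts the plasmid cassettes into the genome. In the Luc model the oncogene plasmid pT3-EF1a-MYC-IRES-luciferase drives MYC and luciferase, and in the LucOS model the same plasmid also carries OS, a set of strong T cell antigens (OVA, SIN and SIY). Each tumour also received PKT2/CLP-Aoah or PKT2/CLP-Vec. There were 4 Luc Aoah, 4 Luc vector, 3 LucOS Aoah and 3 LucOS vector tumours, so each model had its own vector controls. The design text also lists a plasmid for activated beta-catenin, pT3-N90-CTNNB1, without saying which tumours received it. All groups share MYC, luciferase, the transposase and the strain. Age, sex and the cell type in which the CLP cassette is active are not given in the sources used here, and the labels do not say that each tumour came from a different animal, so the p-values measure the spread between these tumours.

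Aoah encodes acyloxyacyl hydrolase, a lipase that removes secondary fatty acyl chains from the lipid A part of bacterial lipopolysaccharide, after which the molecule no longer activates Toll-like receptor 4. In the liver the enzyme is made mainly by Kupffer cells, the resident macrophages that meet gut-derived bacterial products in portal blood. Hepatocytes answer inflammatory cytokines, above all interleukin 6 acting through Stat3, by making acute-phase proteins, and they express many drug- and steroid-metabolising enzymes when they are mature.

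The values are relative transcript levels corrected for transcript length (TPM), and each fold change is a difference of log2(TPM + 1) between Aoah and vector tumours with the model held as a covariate. This scale understates the change of genes near 0 TPM. A gene was tested when it reached 1 TPM in at least 3 tumours, which 13466 of 29923 listed genes did, and it was called when limma's adjusted p was below 0.05. The number of reads behind each value is unknown, since TPM keeps no depth. Between 11478 and 12836 genes reached 1 TPM in a tumour. All 7 hepatocyte markers and all 5 T cell markers read above 0 in all 14 tumours. Xist, the RNA that coats the silenced X chromosome in female cells, read 6.01 to 69.7 TPM in all 14. In 2 Aoah tumours the make-up of the RNA stood apart: 63 small nucleolar RNA genes summed to 7910 TPM in Luc Aoah 3 and to 150 to 524 TPM elsewhere, and mitochondrial genes took 16.6% of TPM in LucOS Aoah 3 and 3.41% to 8.45% elsewhere.

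Aoah itself was higher in each of the 7 Aoah tumours than in any vector tumour. The Luc Aoah tumours held 504, 685, 284 and 519 TPM, and the Luc vector tumours 18.6, 0.74, 54.8 and 0.89 TPM. The LucOS Aoah tumours held 576, 589 and 931 TPM, and the LucOS vector tumours 1.28, 1.59 and 3.43 TPM. Luc vector 1 and Luc vector 3 thus carried more Aoah than the other 5 vector tumours, and the groups did not overlap. Over both models the log2 change was 6.76 (SE 0.72, adjusted p = 9.44e-05), and it did not differ detectably between them (LucOS minus Luc 1.90, adjusted p = 0.51). Without Luc vector 1 and Luc vector 3, 611 genes were called higher and 284 lower, against 1118 and 1050 with all tumours.

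Over both models 2168 genes were called, 16.1% of those tested. Of these 1118 were higher with Aoah (8.30%) and 1050 lower (7.80%). The rises were the larger changes. A log2 change of at least 1 was reached by 489 rises and 229 falls, one of at least 2 by 111 rises and 26 falls, and one of at least 3 by 30 rises and 4 falls. The median log2 change was 0.93 among called rises, -0.76 among called falls and -0.16 over all tested genes. Scaling each tumour to a common median moved the all-gene median to 0.01, and then 1872 genes were called higher and 1514 lower. In 485 genes the lowest Aoah value exceeded the highest vector value inside both models (3.60% of those tested), and in 278 the reverse held (2.06%). The exact permutation test, which exchanged labels only within a model, had 1400 arrangements and a smallest possible p of 0.00143, which 763 genes reached. After adjustment this test called 923 genes higher and 700 lower.

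The genes that moved in Luc tumours alone were then read in the LucOS tumours, which share no library with them. Fitted alone, the Luc tumours gave 2553 calls and the LucOS tumours 6. Of 1247 genes called higher in Luc alone, 1090 (87.4%) also had a positive change in LucOS, where 47.4% of all tested genes did. Of 1306 called lower in Luc alone, 1120 (85.8%) had a negative change in LucOS, where 52.5% of all did. The LucOS groups did not overlap, in the same direction, for 456 of the 1247 and 237 of the 1306; over all tested genes these counts were 837 and 817. Across the 13466 genes the changes in the models had a Pearson r of 0.549, a description only, since the genes come from the same 14 libraries. Among called genes 1643 changed more in Luc than in LucOS by size, and the median change of called rises was 1.04 in Luc and 0.78 in LucOS, that of called falls -0.94 and -0.50.

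**Figure D1:**
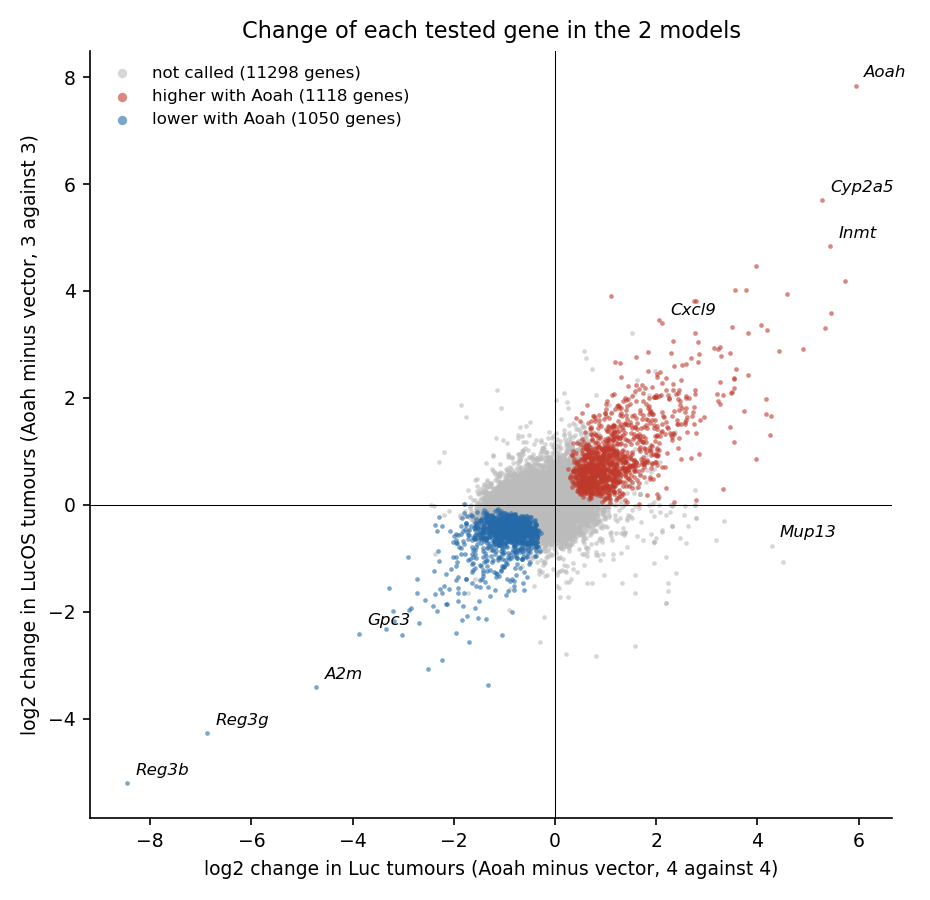
Log2 change of each tested gene, Aoah minus vector, in Luc tumours (horizontal axis, 4 against 4) and LucOS tumours (vertical axis, 3 against 3); red and blue points are the 1118 genes called higher and the 1050 called lower over both models, grey points the rest. Called genes lie along the diagonal from Reg3b, Reg3g and A2m at the lower left to Aoah, Cyp2a5 and Inmt at the upper right, and Mup13 at the right is positive in Luc and negative in LucOS.

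The number of falls depended more on single tumours than the number of rises. With each tumour left out in turn, 782 to 1210 genes were called higher. The number called lower ran from 475 without Luc Aoah 4 to 2136 without LucOS vector 1. It was also 532 without Luc vector 4, 556 without Luc vector 1, 610 without Luc vector 3, 638 without Luc Aoah 3, 647 without Luc Aoah 1, 662 without LucOS vector 2 and 1597 without Luc Aoah 2. In all 14 of these fits 760 genes were called higher and 460 lower.

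**Figure D2:**
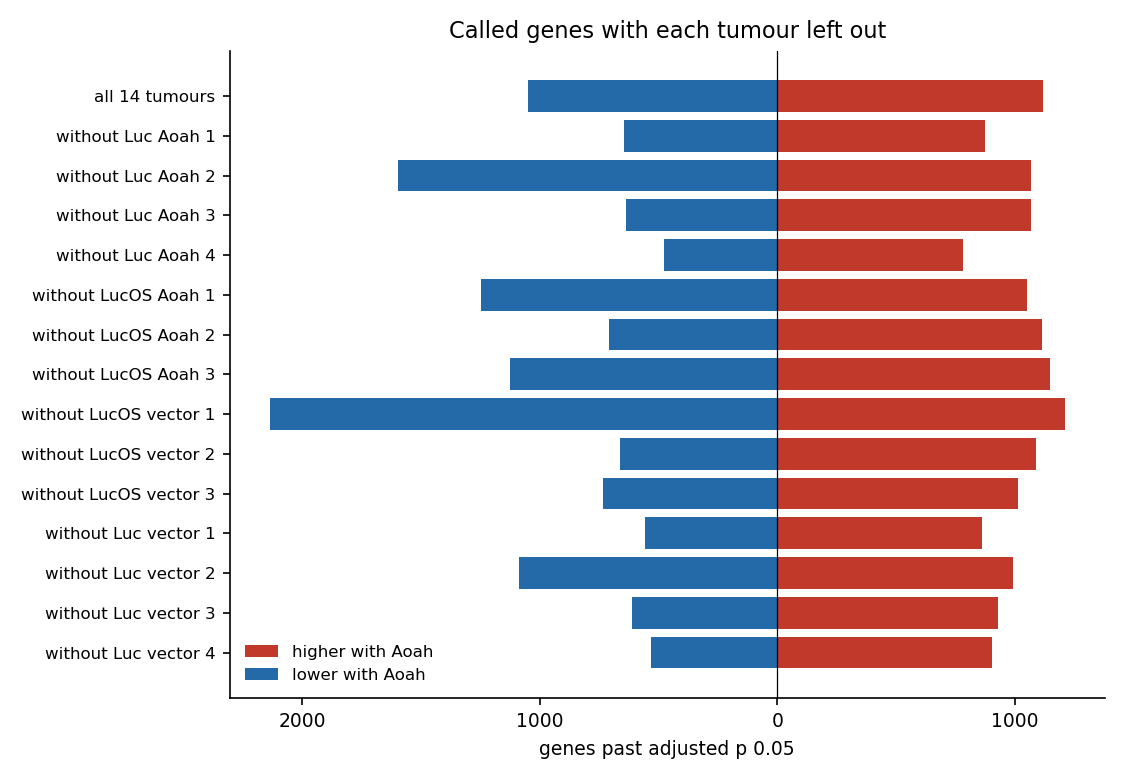
Number of genes past adjusted p 0.05 in the fit of all 14 tumours and in each fit that leaves out 1 tumour (bars to the right, higher with Aoah; to the left, lower with Aoah). The right-hand bars stay between 782 and 1210, and the left-hand bars range from 475 to 2136.

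Apart from Aoah and 2 small nucleolar RNAs, the largest rises were enzymes that mature hepatocytes use to oxidise and conjugate drugs, steroids and other small molecules. Cyp2a5, a cytochrome P450 that oxidises nicotine and coumarin, held 327, 286, 230 and 762 TPM in the Luc Aoah tumours and 3.93, 11.2, 17.4 and 5.76 TPM in their vector controls. In LucOS it held 299, 296 and 1310 TPM with Aoah and 6.03, 26.8 and 3.25 TPM with the vector. The lowest Aoah tumour was above the highest vector tumour in each model, and the log2 change was 5.45 (SE 0.47, adjusted p = 1.71e-05). Inmt, which methylates indoleamines such as tryptamine, held 121, 63.7, 76.2 and 347 TPM against 1.09, 3.15, 2.11 and 1.22 TPM in Luc. In LucOS it held 63.2, 45.1 and 121 TPM against 1.53, 2.17 and 0.92 TPM. The highest vector tumour was thus at 3.15 TPM and the lowest Aoah tumour at 45.1 TPM, and Inmt rose by 5.18 on the log2 scale (SE 0.34, adjusted p = 8.08e-07). Akr1c6, an aldo-keto reductase of steroid metabolism, shared the smallest adjusted p of all tested genes with Inmt. It held 1410, 850, 1520 and 1860 TPM against 125, 140, 139 and 146 TPM in Luc, and 1200, 838 and 1110 TPM against 152, 216 and 103 TPM in LucOS. Its vector tumours were close to one another, and the log2 change was 3.07 (SE 0.20, adjusted p = 8.08e-07).

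Of 29 tested cytochrome P450 genes 21 rose and 1 fell, with a median log2 change of 2.21. Cyp2c50 rose by 5.06, Cyp2c54 by 4.65 and Cyp2a12 by 3.80, and Cyp3a16, a form expressed in young and female liver, fell by 2.48 (limma adjusted p 3.29e-05, 4.10e-05, 0.000137 and 4.77e-05). The summed level of the list was 3400, 6330 and 9150 TPM (lowest, median and highest of 7) with Aoah and 837, 1740 and 3610 TPM with the vector. The sums did not overlap in Luc and overlapped in LucOS, where vector 2 was the high tumour. Of 30 tested conjugation enzymes, which attach glucuronide, sulphate, glutathione or methyl groups, 21 rose and none fell (median 1.43). Among them the glutathione transferase Gsta1 rose by 4.18 and the sulphotransferase Sult2a8 by 4.06 (adjusted p = 4.08e-05 and 3.29e-05). Of 11 tested carboxylesterases, which cleave esters and amides, 10 rose and none fell (median 2.16), with Ces3a at 4.46, Ces1g at 3.78 and Ces2c at 2.77. Genes of the Cyp2a, Cyp2c, Cyp3a, Ces1, Gst, Sult2a and Ugt families have close copies, so the reads of single members may be shared between them, and the counts of separate genes are uncertain to that extent. Also among the genes with the smallest p were Sult2a7 (2.90), the steroid reductase Akr1c20 (2.15), the ketone-body enzyme Bdh2 (1.83) and, among the largest rises, the retinol dehydrogenase Rdh16f2 (3.75).

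Other hepatocyte products rose less uniformly. Of 20 hepatocyte identity genes 8 rose and 1, Fgb, fell (median 0.76), and 3 fell without LucOS vector 1. Apoc3, an apolipoprotein of triglyceride-rich particles, held 1410, 1340, 1210 and 2080 TPM with Aoah against 271, 417, 542 and 331 TPM in Luc, and 1170, 1050 and 1720 TPM against 237, 678 and 200 TPM in LucOS. The groups were apart in both models, with LucOS vector 2 the nearest to the Aoah tumours (log2 change 1.98, SE 0.25, adjusted p = 0.000146). Ttr, the carrier of thyroxine and retinol-binding protein, rose by 1.56, and Alb, albumin, by 1.46. Among the 7 hepatocyte markers Apoa1 also rose (1.02, limma adjusted p = 0.0179). The rest did not pass: Serpina1a (0.53), Trf (0.17), Apob (-0.28) and Ahsg (-0.57), with limma adjusted p of 0.232, 0.705, 0.28 and 0.167. Alb overlapped in Luc, where Luc Aoah 3 held 2500 TPM and Luc vector 3 held 3270 TPM. Of 26 hepatocyte transcription factors and nuclear receptors none rose and 3 fell (Nr0b2, Foxa1 and Cux2, median of the list -0.36). Over all tested genes 7.80% fell. The falls in this list numbered 5 without LucOS Aoah 3 and 10 without LucOS vector 1. The call of Cux2 was lost without Luc Aoah 1, 3 or 4, Luc vector 1, 3 or 4, LucOS Aoah 3, LucOS vector 2 or LucOS vector 3 (adjusted p 0.0537 to 0.0839). In bulk tissue, more or fewer cells of a type and more or less RNA per cell cannot be told apart.

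Cyp3a11, the main drug-oxidising P450 of the mouse liver, is shown with its promoter because it is a hepatocyte gene with a match to the binding letters of the hepatocyte factor HNF4. It held 2410, 1950, 1530 and 3590 TPM against 303, 625, 395 and 365 TPM in Luc, and 1650, 1550 and 2390 TPM against 260, 1270 and 374 TPM in LucOS. No tumours overlapped, although LucOS vector 2 came close, and the log2 change was 2.21 (SE 0.31, adjusted p = 0.000332). The window below runs from 250 bases before to 50 after the start in RefSeq's GRCm38.p6, chr5:145879805-145880104 on the minus strand, 5′ to 3′; the capitals mark the HNF4 letters CAAAGTCCA.
Cyp3a11: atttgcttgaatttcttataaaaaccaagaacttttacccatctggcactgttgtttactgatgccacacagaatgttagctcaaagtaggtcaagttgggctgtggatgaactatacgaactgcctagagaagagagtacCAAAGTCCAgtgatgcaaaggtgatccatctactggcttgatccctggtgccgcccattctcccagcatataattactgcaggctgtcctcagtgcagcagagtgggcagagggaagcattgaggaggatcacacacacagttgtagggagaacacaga

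Several bile acid synthesis genes rose and their feedback repressor fell. Of 23 tested genes of bile acid synthesis and transport 8 rose and 1 fell (median 0.55). Cyp7a1, the rate-limiting enzyme, held 45.8, 34.9, 44.7 and 41.5 TPM against 2.76, 0.93, 4.12 and 13.1 TPM in Luc, and 60.1, 26.7 and 39.4 TPM against 1.13, 29.5 and 1.36 TPM in LucOS. LucOS vector 2 lay within the range of the Aoah tumours, and the other 6 vector tumours lay below it (log2 change 3.06, SE 0.54, adjusted p = 0.00157). Cyp8b1, which sets the share of cholic acid, rose by 2.16 (adjusted p = 0.00192) and Baat, which joins bile acids to amino acids, by 1.89 (adjusted p = 0.000365). Nr0b2, the repressor SHP that bile acids induce, fell by 1.53 on the log2 scale (adjusted p = 0.00212). Its levels were 6.73, 6.95, 2.03 and 6.19 TPM with Aoah and 30.9, 17.8, 26 and 17.3 TPM with the vector in Luc, and 3.74, 3.92 and 8.01 TPM against 7.47, 10.2 and 15.6 TPM in LucOS. They were apart in Luc and overlapped in LucOS through LucOS Aoah 3 and LucOS vector 1.

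Pericentral and periportal genes both held rises. Of 17 beta-catenin targets and pericentral genes 6 rose and 1, Rnf43 (-0.62), a brake on Wnt receptors, fell (median 0.68), the rises including Oat (2.21), Slc1a2 (2.30) and Cyp1a2 (3.13), and 2 fell without LucOS vector 1. Of 16 periportal genes 4 rose and none fell (median 0.30), namely Pigr (3.04), Cyp2f2 (2.92), Alb and Arg1 (1.03). Of 32 urea cycle and amino acid genes 10 rose and 2, Sdsl (-0.94) and Gldc (-1.07), fell (median 0.44), and 6 rose without Luc Aoah 4. The amino acid enzymes Agxt and Bhmt rose by 2.19 and 1.89. Of 26 fatty acid oxidation genes 2 rose, Cyp4a10 (2.84) and Cyp4a14 (2.21), which hydroxylate fatty acids at the end of the chain, and 2 fell, Acadl (-0.67) and Bdh1 (-0.82), shares close to the 8.30% and 7.80% over all tested genes. Without LucOS vector 1 the falls numbered 7, and without Luc Aoah 4, Luc vector 1, Luc vector 3 or Luc vector 4 they numbered 1. Nrf2 targets rose in 8 of 21 genes and fell in none (median 0.55), among them Nqo1 (1.85), a quinone reductase, Gsta1 and Gsta2 (3.20).

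Both male-biased and female-biased liver genes were among the rises. Of 13 tested major urinary proteins, pheromone carriers that are abundant in male liver, 10 rose and none fell (median 1.74), and their summed level was 1330, 2960 and 4550 TPM (lowest, median, highest) with Aoah and 254, 490 and 1280 TPM with the vector, with no overlap inside either model. Mup3 held 1380, 941, 1170 and 1650 TPM against 64.4, 39.5, 63.4 and 112 TPM in Luc, and 322, 293 and 663 TPM against 186, 222 and 97.3 TPM in LucOS. The groups were apart in both models, widely in Luc and narrowly in LucOS (log2 change 2.99, SE 0.45, adjusted p = 0.000589). Of 13 male-biased genes 8 rose and none fell (median 1.43). Of 20 female-biased genes 6 rose, including Cyp2b9 (3.13) and Slc22a26 (2.37), and 5 fell, Cyp3a16, Cyp3a44 (-1.78), Cyp17a1 (-1.36), Cux2 and Prom1. Mup genes are near-identical copies, and their separate levels are uncertain.

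A minority of genes in the growth hormone and insulin-like growth axis changed, in both directions. The growth hormone receptor Ghr rose by 1.67 (SE 0.25, adjusted p = 0.000467). Igf1, the hormone that growth hormone induces in hepatocytes, held 65.0, 86.2, 53.8 and 106 TPM against 14.0, 6.36, 15.4 and 16.8 TPM in Luc, and 42.6, 28.3 and 104 TPM against 10.3, 22.4 and 10.8 TPM in LucOS. No tumours overlapped inside either model, and Igf1 rose by 2.21 (SE 0.30, adjusted p = 0.000256). Igfbp1, a binding protein that holds Igf1 back, fell by 1.70 on the log2 scale (SE 0.31, adjusted p = 0.00200). Of the 19 tested genes of this axis 3 rose, the other being the transporter Slco1a1 (1.26). The falls numbered 2, the other being the binding protein Igfbp2 (-1.08), and 5 without LucOS vector 1. The median of the list was 0.10, and over all tested genes 8.30% rose and 7.80% fell.

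**Figure D3:**
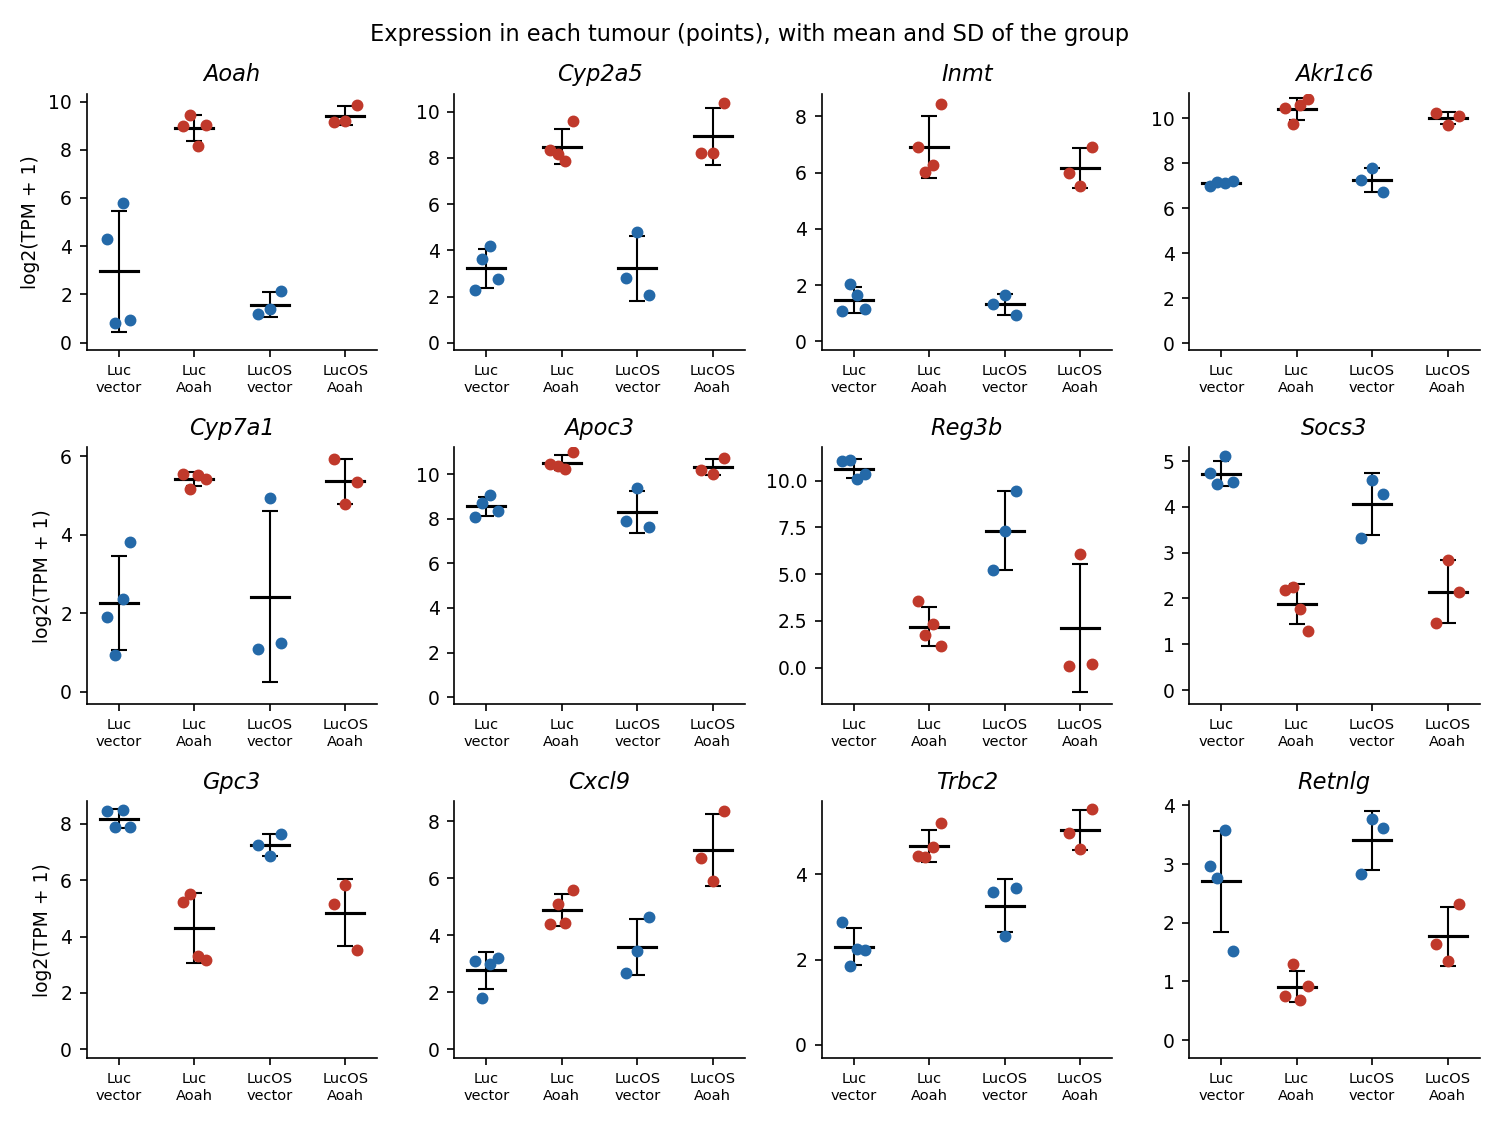
Level of 12 genes in each tumour as log2(TPM + 1), with vector tumours in blue and Aoah tumours in red; lines and bars are group means and SD (n = 4 per Luc group, n = 3 per LucOS group). Aoah, Cyp2a5, Inmt, Akr1c6 and Apoc3 are higher with Aoah in both models without overlap, Cyp7a1 overlaps through LucOS vector 2, Reg3b overlaps in LucOS, and Socs3, Gpc3 and Retnlg are lower with Aoah without overlap inside a model.

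Acute-phase and Stat3 target genes held the 3 largest falls of the comparison. Of 35 tested members 18 fell and none rose, with a median log2 change of -1.02, and 15 to 24 fell with each tumour left out in turn. Their summed level was 13200, 20700 and 33800 TPM (lowest, median, highest) with Aoah and 13900, 33000 and 64900 TPM with the vector, overlapping in both models. The ligand Il6, interleukin 6, fell by 2.75 on the log2 scale (SE 0.75, adjusted p = 0.0255). Its levels were 3.74, 1.5, 2.93 and 0.47 TPM against 11.7, 37.2, 6.78 and 18.0 TPM in Luc, and 0.09, 14.3 and 0.19 TPM against 3.98, 15.7 and 142 TPM in LucOS. LucOS Aoah 2 overlapped the vector tumours. Il6 no longer passed when Luc Aoah 4 (limma adjusted p = 0.0619) or Luc vector 4 (limma adjusted p = 0.0533) was left out. It also missed the threshold by exact permutation (adjusted p = 0.0527). Among the receptors Il1r1, which binds interleukin 1, fell by 1.44 (adjusted p = 0.000523), and Il6ra and Osmr, the receptor chains for interleukin 6 and oncostatin M, changed by -0.45 and -0.42 without passing the test (adjusted p = 0.217 and 0.064; both named after their values were seen).

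Socs3, the feedback inhibitor that Stat3 induces, was among the 6 falls with the smallest p. It held 3.54, 3.79, 2.42 and 1.46 TPM against 25.6, 21.7, 33.5 and 22.4 TPM in Luc. In LucOS it held 1.74, 6.14 and 3.44 TPM against 8.94, 23.2 and 18.4 TPM. All Aoah tumours lay below all vector tumours, and Socs3 fell by 2.45 on the log2 scale (SE 0.27, adjusted p = 6.08e-05). Stat3 itself changed by -1.15 (adjusted p = 0.046; named after its value was seen), and Stat3 no longer passed when Luc Aoah 1, 3 or 4, any Luc vector tumour, LucOS Aoah 2 or LucOS vector 2 was left out (adjusted p 0.0554 to 0.107). Among the secreted products the protease inhibitor Serpina3n fell by 2.90 (adjusted p = 0.000341), and the lipopolysaccharide-binding protein Lbp by 1.45 (adjusted p = 0.0128). Lbp missed the threshold by exact permutation (adjusted p = 0.0584) and without Luc vector 1 and Luc vector 3 (limma adjusted p = 0.0775). The serum amyloid genes Saa1 (0.15) and Saa2 (0.06), the classic markers of the mouse acute phase, and Hp, haptoglobin (-0.52), did not pass the test (adjusted p = 0.885, 0.961 and 0.300; named after their values were seen).

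Reg3b and Reg3g, secreted lectins that bind bacterial cell walls and are Stat3 targets in several epithelia, showed the largest falls of all. Reg3b held 10.8, 2.34, 4.03 and 1.20 TPM against 2150, 2160, 1100 and 1300 TPM in Luc. In LucOS it held 0.08, 66.2 and 0.13 TPM against 36.7, 155 and 698 TPM. The Luc groups were far apart, whereas in LucOS Aoah 2 exceeded vector 1. Reg3b fell by 7.06 on the log2 scale (SE 1.01, adjusted p = 0.000656) and Reg3g by 5.75 (SE 0.86, adjusted p = 0.000899). The Reg3 genes are close copies and may share reads. Pancreatic acinar cells also make Reg3 proteins, so their defining markers are given beside this result: Prss2 read 0 TPM in 12 of 14 tumours, Cpa1 and Pnlip in 13 of 14, none of these above 0.54 TPM, and Cela1 read 14.1 to 26.7 TPM. Of 3 tested acinar genes Clps rose by 0.86 and Zg16 fell by 1.42, and Clps no longer passed when any tumour other than Luc Aoah 2, LucOS Aoah 3 and LucOS vector 1 was left out. The summed acinar list ran from 19.1 to 29.6 TPM in Aoah tumours and from 15.6 to 25 TPM in vector tumours. A2m, a protease inhibitor of the acute phase, held 18.4, 11.6, 9.76 and 5.37 TPM against 298, 356, 362 and 206 TPM in Luc, and 3.70, 37.8 and 1.53 TPM against 20.0, 112 and 234 TPM in LucOS. It showed the same overlap as Reg3b, between LucOS Aoah 2 and LucOS vector 1, and fell by 4.16 (SE 0.62, adjusted p = 0.000777). Its relative A2ml1 fell by 1.59 with no overlap in either model (adjusted p = 3.91e-05).

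The promoters of Socs3 and Reg3b are printed because both genes fell together and both windows hold 1 match to the STAT letters TTCNNNGAA. The windows follow RefSeq's GRCm38.p6, chr11:117969317-117969616 on the minus strand for Socs3 and chr6:78370635-78370934 on the plus strand for Reg3b, 5′ to 3′, with the match in capitals.
Socs3: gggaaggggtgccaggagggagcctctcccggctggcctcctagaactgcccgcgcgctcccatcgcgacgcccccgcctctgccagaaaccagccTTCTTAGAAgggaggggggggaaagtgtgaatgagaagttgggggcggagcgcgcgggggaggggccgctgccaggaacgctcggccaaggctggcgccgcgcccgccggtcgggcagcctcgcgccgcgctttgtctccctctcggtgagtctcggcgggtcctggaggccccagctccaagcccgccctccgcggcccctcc
Reg3b: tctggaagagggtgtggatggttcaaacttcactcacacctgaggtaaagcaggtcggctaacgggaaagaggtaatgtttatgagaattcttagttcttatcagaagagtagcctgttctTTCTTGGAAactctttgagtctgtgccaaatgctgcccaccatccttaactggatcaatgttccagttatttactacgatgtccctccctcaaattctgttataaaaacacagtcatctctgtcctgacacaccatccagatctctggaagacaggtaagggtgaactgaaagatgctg

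Genes of lipopolysaccharide recognition, the pathway of the enzyme's substrate, mostly did not pass the test. Of 25 tested genes 4 fell and 1 rose (median -0.34). The rise, Ly86 (0.93; named after its value was seen), a partner of the receptor Cd180, was lost without Luc Aoah 1, Luc Aoah 4, Luc vector 1 or Luc vector 4, and 2 genes rose without LucOS Aoah 1 or LucOS Aoah 2. The falls were Cd14, Lbp, Il6 and the adaptor Tirap (-0.90), and 2 fell without Luc Aoah 4 or without Luc vector 4. Tirap alone was also lost without Luc Aoah 1, Luc Aoah 3, Luc vector 3, LucOS Aoah 2 or LucOS vector 2 (adjusted p 0.0504 to 0.0604). Cd14, the co-receptor that hands lipopolysaccharide to Toll-like receptor 4, held 6.94, 12.0, 4.52 and 4.74 TPM against 40.6, 40.3, 38.9 and 25.1 TPM in Luc, and 4.80, 6.47 and 9.91 TPM against 15.3, 30.0 and 23.2 TPM in LucOS. The groups were apart in both models (log2 change -1.97, SE 0.24, adjusted p = 0.000114). The receptor Tlr4 changed by 0.31 and its partner Ly96 by 0.55 without passing the test (adjusted p = 0.174 and 0.0546; Tirap, Tlr4 and Ly96 were named after their values were seen). Of 23 genes of phospholipid remodelling and arachidonate metabolism 3 rose, Hpgd (0.96), which inactivates prostaglandins, the acyltransferase Lpcat2 (0.91) and Enpp2 (1.15), which makes lysophosphatidic acid, and 1 fell, Lpl (-0.74), lipoprotein lipase. The falls numbered 3 without LucOS vector 1 and 2 without LucOS Aoah 1 or Luc vector 4. Beside the counts of these lists, 8.30% of all tested genes rose and 7.80% fell.

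Markers of fetal liver and liver cancer fell in 13 of 23 tested genes and rose in 1, Nqo1 (median -0.94). The falls numbered 8 without Luc Aoah 4 or without Luc vector 4. Gpc3, a surface proteoglycan of fetal liver and hepatocellular carcinoma, held 36.5, 45.2, 8.91 and 7.95 TPM against 353, 235, 358 and 237 TPM in Luc, and 35.1, 55.9 and 10.6 TPM against 153, 116 and 199 TPM in LucOS. No tumours overlapped, and it fell by 3.25 on the log2 scale (SE 0.44, adjusted p = 0.000238). The imprinted genes Dlk1, Rian and Peg3 fell by 2.77, 2.52 and 2.02 (limma adjusted p 0.00218, 0.00154 and 0.000191), each without overlap inside a model. The gap was narrow for Peg3 in LucOS, with 3.47 TPM in Aoah 2 and 3.89 TPM in vector 1. Dlk1 and Rian lie in the same imprinted cluster. Prom1, a progenitor and bile duct marker, fell by 1.96 (adjusted p = 0.000238). The cholangiocyte markers Krt7 and Krt19 were at most 0.74 and 1.55 TPM in any tumour and Cftr at most 0.04 TPM. Akr1b7, an aldo-keto reductase, fell by 2.75, among the 12 largest falls, and the homeobox gene Hesx1, among the 6 falls with the smallest p, fell by 2.07.

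Iron genes included changes of both signs. Scara5, a receptor that takes up ferritin, fell by 2.69 (SE 0.31, adjusted p = 8.64e-05), with 0.80, 2.12, 1.08 and 0.29 TPM against 12.6, 21.4, 23.6 and 13.6 TPM in Luc and 0.81, 2.43 and 1.22 TPM against 3.90, 15.1 and 10.1 TPM in LucOS. No tumours overlapped. The ferritin heavy chain Fth1 fell by 0.96 (adjusted p = 0.000964) and the transferrin receptor Tfrc by 1.16 (adjusted p = 0.00101). Hamp2, a paralog of the iron hormone hepcidin, rose by 2.04 (adjusted p = 0.000560), while Hamp changed by 0.16 without passing the test (adjusted p = 0.716; named after its value was seen). Of 20 tested iron genes 1 rose and 4 fell, Lcn2 (-2.15) being the other, or 7 without LucOS vector 1. For all tested genes the shares were 8.30% rising and 7.80% falling.

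Lymphocyte genes rose over both models. Of 18 tested T cell genes (22 listed) 16 rose and none fell (median 1.28). Of 14 tested CD8 and cytotoxic genes (19 listed) all 14 rose (median 1.49). With each tumour left out, 14 to 16 and 11 to 14 rose. A gene low in vector tumours could pass the filter through Aoah tumours alone, so these shares lean towards rises. Trbc2, a constant segment of the T cell receptor beta chain, held 20.3, 20, 24 and 35.8 TPM against 6.41, 2.61, 3.75 and 3.69 TPM in Luc, and 30.3, 23 and 44.8 TPM against 10.9, 4.83 and 11.8 TPM in LucOS. Every Aoah tumour was above every vector tumour of both models (log2 change 2.10, SE 0.24, adjusted p = 7.15e-05). The signalling kinase Zap70 rose by 1.37 and the receptor chain Cd3g by 1.82. Among cytotoxic genes the granule protein Nkg7 rose by 1.72 and the granzyme Gzma by 1.90. Gzma overlapped in LucOS, where vector 1 held 34.6 TPM and Aoah tumours 23.3, 23.6 and 43.2 TPM. The summed T cell list ran from 88.0 to 218 TPM in Aoah tumours and from 17.2 to 52.0 TPM in vector tumours, with no overlap.

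Interferon gamma response genes rose with them. Of 22 tested members 13 rose and none fell (median 1.40). Cxcl9, the chemokine that recruits CXCR3-bearing T cells, held 20.2, 33.5, 20.8 and 46.9 TPM against 7.56, 2.51, 7.03 and 8.19 TPM in Luc, and 105, 58.5 and 330 TPM against 5.43, 9.90 and 24.2 TPM in LucOS. The groups were apart in each model, the highest level was in LucOS Aoah 3, and Cxcl9 rose by 2.66 (SE 0.42, adjusted p = 0.000659). The interferon-induced GTPases Tgtp1 and Tgtp2, near-identical copies, rose by 2.17 and 2.27. Of 21 class I presentation genes 7 rose, among them the immunoproteasome subunits Psmb9 (2.00) and Psmb8 (1.53), and of 10 class II genes 6 rose, among them H2-Aa (2.00); no gene of either list fell. Class I sums overlapped in both models (3210 to 9480 TPM with Aoah, 2490 to 5290 TPM with the vector). Class II sums overlapped in LucOS (614 to 4790 TPM and 275 to 1380 TPM over both models). The summed interferon gamma list ran from 355 to 3310 TPM in Aoah tumours and from 145 to 520 TPM in vector tumours, with no overlap inside a model. These genes and the T cell genes moved together, and the part of T cell number in the interferon values was not tested.

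Cxcl9 is shown with its promoter because it leads the interferon gamma list and its window holds 1 match to the interferon regulatory factor letters GAAANNGAA, in capitals (RefSeq, GRCm38.p6, chr5:92328030-92328329, minus strand, 5′ to 3′).
Cxcl9: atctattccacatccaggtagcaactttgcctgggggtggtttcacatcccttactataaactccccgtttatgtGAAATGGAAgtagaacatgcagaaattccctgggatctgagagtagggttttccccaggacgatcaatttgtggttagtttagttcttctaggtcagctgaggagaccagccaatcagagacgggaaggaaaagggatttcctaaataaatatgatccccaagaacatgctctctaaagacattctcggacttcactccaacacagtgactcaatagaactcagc

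Across all promoters the letters were counted on both strands of the same 300-base windows, of which 12514 belonged to 9784 tested genes. The HNF4 letters were in 1.94% of windows of genes called higher, 0.607% of those called lower and 0.607% of all tested. The HNF1 letters GTTAATNAT were in 1.63%, 1.21% and 0.639%. The IRF letters were in 12.5%, 6.37% and 7.30%, and the STAT letters in 8.36%, 7.68% and 7.16%. The E-box CACGTG, which MYC can bind, was in 6.52%, 11.8% and 9.79%. STAT and IRF matches shared bases in 24 windows, and no other pair did. These shares describe letters in a window and carry no test.

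Chemokines rose in 11 of 20 tested genes and fell in 2, Cxcl1 and Ccl6 (-0.79; median of the list 0.83); 6 rose without Luc Aoah 4 and 7 without Luc vector 4. The falls were 1 in number without Luc Aoah 4, LucOS Aoah 1, LucOS Aoah 2, LucOS vector 3, Luc vector 2 or Luc vector 3. For comparison, 8.30% of all tested genes rose and 7.80% fell. Ccl5, made by activated T cells, rose by 1.95 (adjusted p = 0.000518). Cxcl1, which draws neutrophils, held 36.4, 26.4, 33.9 and 22.3 TPM against 150, 120, 118 and 58.3 TPM in Luc, and 18.4, 53.3 and 24.7 TPM against 98.7, 81.6 and 166 TPM in LucOS. Its groups were apart in both models, and it fell by 1.85 on the log2 scale (SE 0.25, adjusted p = 0.000262). Neutrophil genes fell in 8 of 15 tested members (20 listed) and rose in none (median -1.09). Without the pair of Luc vector tumours that carried Aoah, 5 fell. Genes low in Aoah tumours could pass the filter through vector tumours alone, so this share leans towards falls. Lcn2 (-2.15; named after its value was seen) stands in both this list and the acute-phase list. Retnlg, a neutrophil-secreted protein, fell by 1.72 (0.61 to 4.01 TPM with Aoah, median 1.45; 1.87 to 12.6 TPM with the vector, median 6.79; adjusted p = 0.000838), and S100a8, a subunit of calprotectin, by 1.55 (adjusted p = 0.00313). The defining marker Ly6g read 0 TPM in 3 Aoah tumours and 1 vector tumour and at most 0.79 TPM, and Csf3r, which was tested, changed by -0.17 (adjusted p = 0.597). The summed neutrophil list was 119, 421 and 646 TPM (lowest, median, highest) with Aoah and 593, 1500 and 2330 TPM with the vector, overlapping in LucOS.

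Of 25 monocyte and macrophage genes 7 rose and 2, Chil3 (-2.19) and Cd14, fell (median 0.33), and 4 rose without Luc Aoah 4 or without Luc vector 1. For comparison, 8.30% of all tested genes rose and 7.80% fell, the latter close to the share of falls in this list. Lyz2, the lysozyme of myeloid cells, rose by 1.5 (adjusted p = 0.00102). Among 15 Kupffer cell genes 4 rose, Clec4f (1.56), Folr2 (1.08), Timd4 (1.02) and Nr1h3 (0.45; median of the list also 0.45), a count that was 0 without Luc Aoah 1, Luc Aoah 4, Luc vector 1 or Luc vector 4. It was 1 without Luc Aoah 3 or Luc vector 2, and 2 without Luc Aoah 2, LucOS Aoah 3 or LucOS vector 3. The Kupffer cell marker Vsig4 did not pass the test (0.95, limma adjusted p = 0.12). Stellate cell and fibroblast genes rose in 7 of 22 and fell in none (median 0.47). Lrat, which stores retinol as esters in stellate cells, rose by 0.70, and the matrix genes Col3a1 and Dcn by 1.49 and 1.35 (limma adjusted p 0.000907, 0.00205 and 0.00210). Lrat was low throughout. No vector tumour exceeded 0.44 TPM and no Aoah tumour 1.37 TPM, so Lrat passed the filter through Aoah tumours alone. The stellate marker Reln did not pass the test (0.25, limma adjusted p = 0.377). Another marker, Pdgfrb, reached at most 1.09 TPM and was not tested. The summed stellate list ran from 256 to 557 TPM in Aoah tumours and from 143 to 244 TPM in vector tumours. The part of these cell markers in the other gene changes was not tested.

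**Figure D4:**
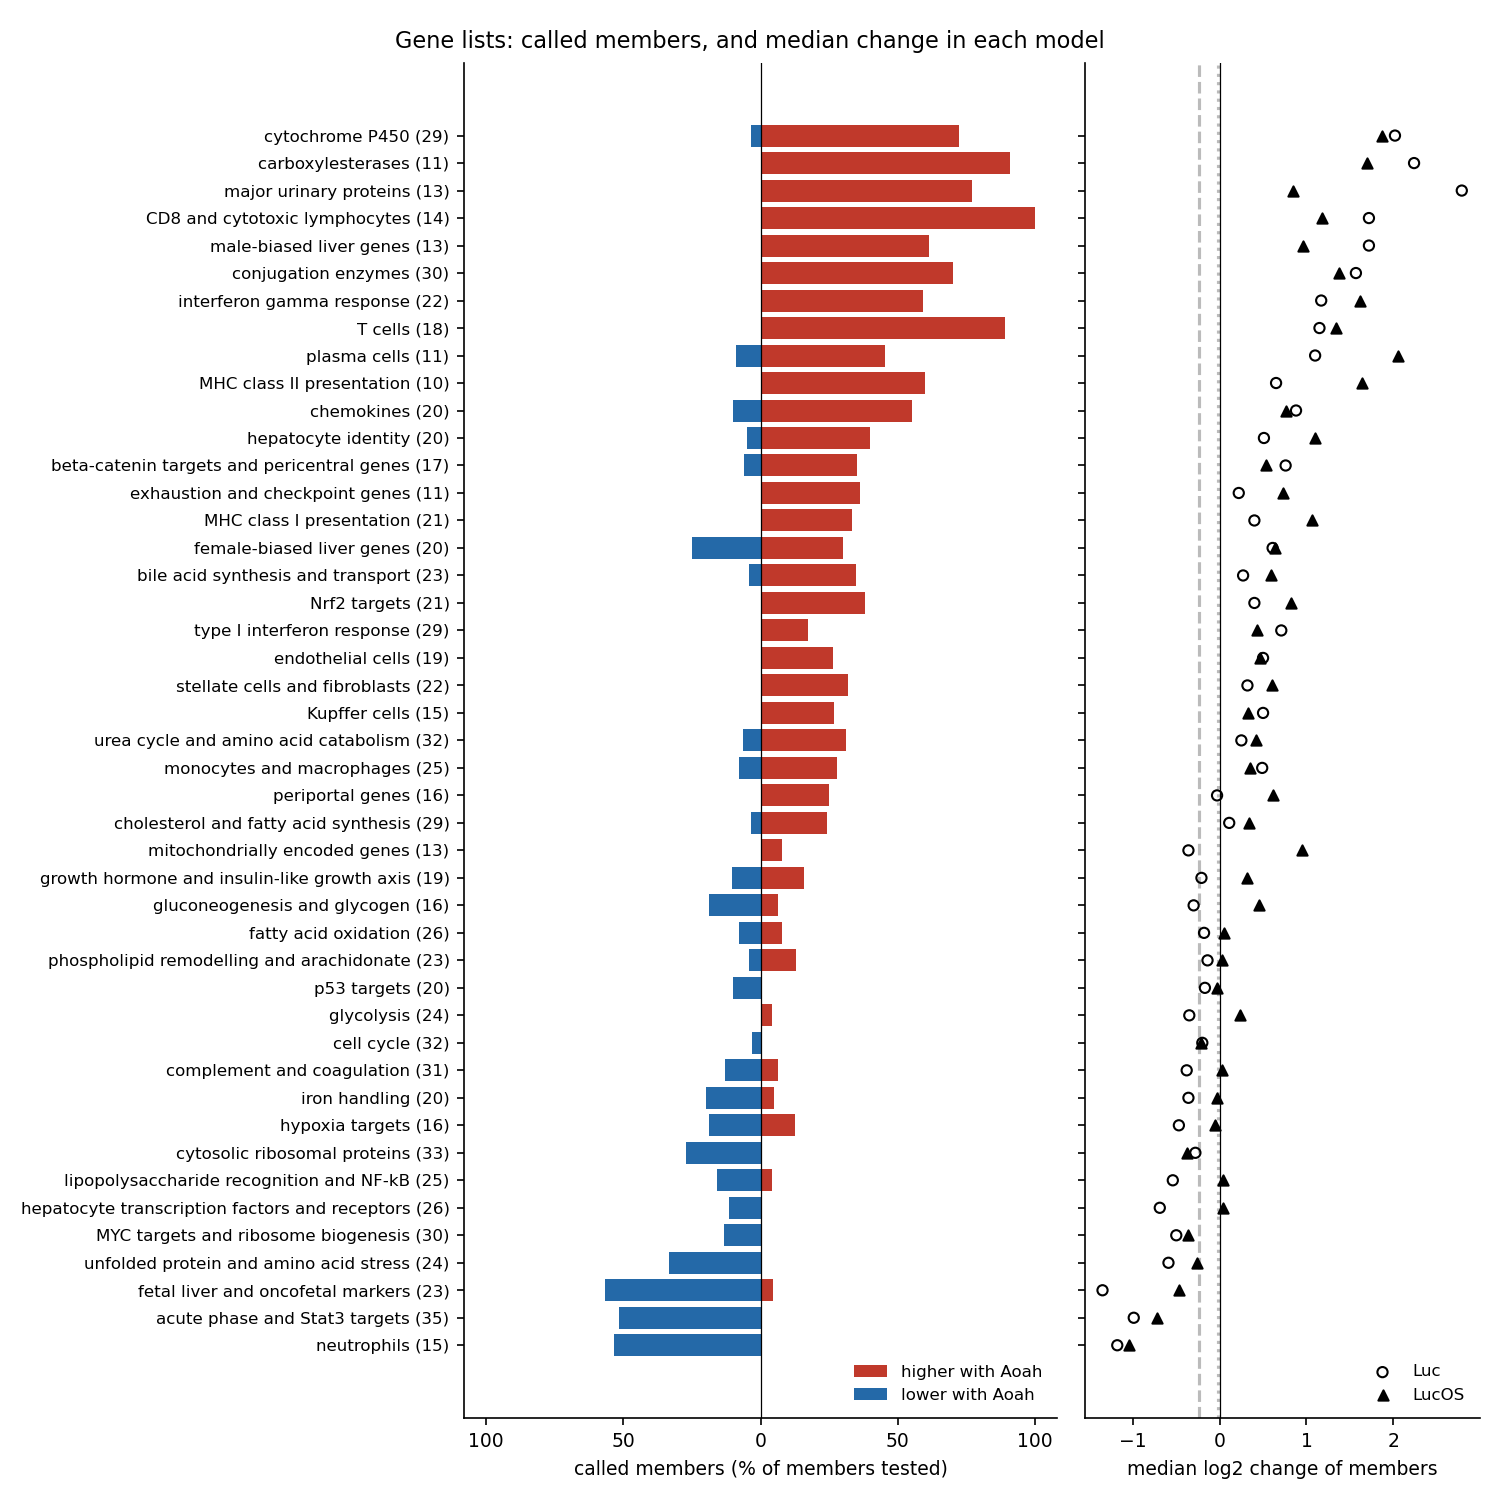
Gene lists with at least 10 tested members (number in brackets), ordered by median change. Left, share of tested members called higher (red, to the right) or lower (blue, to the left) over both models; right, median log2 change in Luc (open circles) and LucOS (triangles), with the all-gene medians of -0.24 in Luc (dashed) and -0.02 in LucOS (dotted). Enzyme, lymphocyte and interferon gamma lists stand at the top, and fetal, acute-phase and neutrophil lists at the bottom.

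Several antibody genes were higher with Aoah, and most listed B cell genes were too low to be tested. Of 11 tested plasma cell genes 5 rose and 1, Xbp1, fell (median 1.24). The summed plasma cell list overlapped in both models. It ran from 472 to 1110 TPM with Aoah and from 354 to 819 TPM with the vector. Jchain, which joins IgA and IgM units, held 53, 47.3, 67.9 and 113 TPM against 26.8, 2.89, 10.4 and 6.62 TPM in Luc, and 95.6, 79.8 and 16.8 TPM against 25.2, 1.00 and 2.27 TPM in LucOS. LucOS Aoah 3 lay below LucOS vector 1, and Jchain rose by 2.96 (SE 0.59, adjusted p = 0.00415). Ighg2c rose by 2.30 (adjusted p = 0.00409), with 1.10 in Luc and 3.91 in LucOS, a difference that did not pass the test across all genes. Of 17 listed B cell genes 5 were tested and 3 of these rose, Cd79b (0.63), a part of the B cell receptor, and the immunoglobulin genes Ighm (1.19) and Iglc1 (2.53), the last of which plasma cells also make. The summed B cell list ran from 21.6 to 54.5 TPM with Aoah and from 3.35 to 16.7 TPM with the vector, without overlap in either model. The markers Ms4a1 and Cd79a were at most 0.47 TPM and were not tested; each read 0 TPM in 1 vector tumour.

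**Figure D5:**
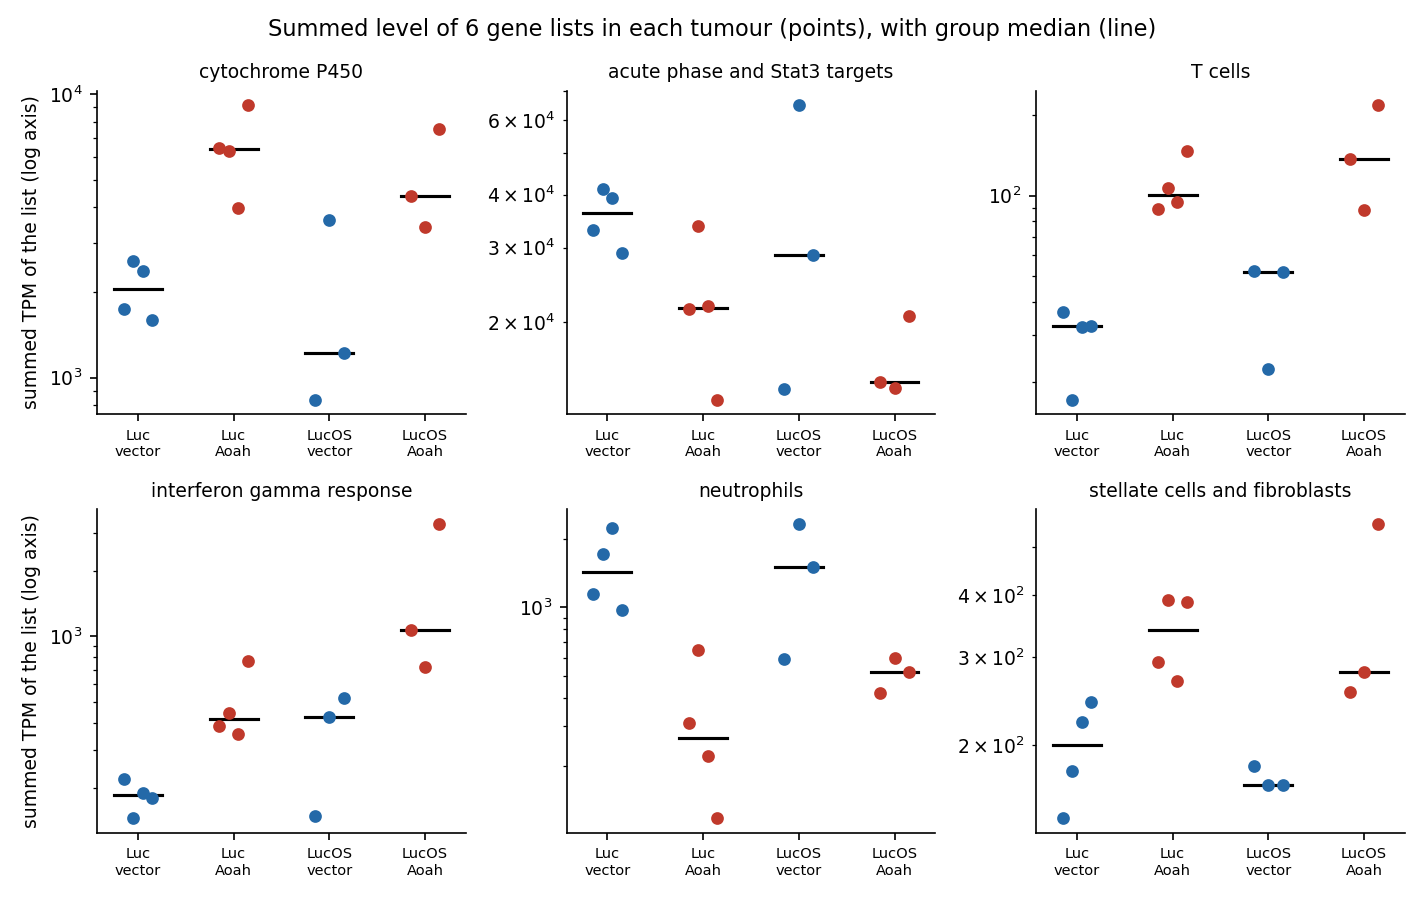
Summed TPM of 6 gene lists in each tumour on a log axis, with vector tumours in blue, Aoah tumours in red and the group median as a line. T cell, interferon gamma and stellate sums are higher with Aoah without overlap in either model, the cytochrome P450 and neutrophil sums overlap in LucOS, and the acute-phase sums overlap in both.

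The receptor repertoire that the authors deposited, assembled from the same libraries with the tool MiXCR, gave another readout of lymphocytes. Of 20 measures 7 passed the exact permutation test after adjustment over all 20, and 6 did on the log2(value + 1) scale, where IGL clonotypes no longer passed (adjusted exact permutation p = 0.0286 and, on that scale, 0.0531). T cell receptor beta clones numbered 77, 91 and 157 (lowest, median, highest of 7) with Aoah and 4, 12 and 71 with the vector. The groups did not overlap, and the model-adjusted difference was 84.6 clones (exact permutation p = 0.00143, adjusted 0.0143). Beta-chain clonotypes, the distinct sequences, differed by 48.1 (adjusted exact permutation p = 0.0190), with 51 to 84 against 4 to 58, where LucOS vector 1 held 58. Clones in the IGL column numbered 395, 1070 and 1450 with Aoah and 15, 101 and 564 with the vector (difference 785, adjusted exact permutation p = 0.0143), and heavy-chain clones 99, 331 and 511 against 4, 59 and 205 (difference 225, adjusted exact permutation p = 0.0190). Clonality in the IGL column, which is high when few clones dominate, also passed (difference 0.092, adjusted exact permutation p = 0.0190), with 0.0798 to 0.414 against 0.0163 to 0.104. Beta-chain clonality and the IgG and IgA shares of heavy-chain sequences did not pass (adjusted exact permutation p = 0.691, 0.977 and 0.977). Clone numbers rise with sequencing depth, which is unknown, and they were not scaled to it.

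Several processes had few calls or counts that varied between fits. Among all tested genes 8.30% rose and 7.80% fell. Of 32 cell cycle genes 1 fell, Ccne1 (-0.93), and none rose (median -0.16); 2 fell without Luc Aoah 2, LucOS vector 1 or Luc vector 2. Of 30 MYC targets and ribosome biogenesis genes 4 fell, Nop2 (-1.05), Ddx21 (-0.88), Apex1 (-0.65) and Pes1 (-0.63; median of the list -0.47), a count between 0 without Luc Aoah 4 and 11 without Luc Aoah 2 or LucOS Aoah 1. It was also 8 without LucOS vector 1, 9 without Luc vector 2, 2 without Luc Aoah 1 and 1 without any of the other 8 tumours. Of 24 genes of the unfolded protein and amino acid response 8 fell, among them Xbp1 (-1.11), Psat1 (-1.12) and Asns (-1.0; median of the list -0.49). That count was 5 without Luc Aoah 1, Luc Aoah 3 or Luc vector 4, and 4 without Luc Aoah 4, Luc vector 1 or LucOS vector 3. Of 24 glycolysis genes 1 rose, Ldhb (1.10), or 2 without LucOS vector 2, and none fell. Ldhb did not pass without Luc vector 1 and Luc vector 3 (0.84, limma adjusted p = 0.127), with no filter on low values (adjusted p = 0.0569) or by exact permutation (adjusted p = 0.0641). Of 31 complement and coagulation genes C8g (2.14) and C9 (2.04), parts of the membrane attack complex, rose, and 4 fell, among them the regulator Cfi (-0.63), C8b (-0.61) and Pros1 (-1.0; median of the list -0.19). The falls numbered 10 without LucOS vector 1, 7 without LucOS Aoah 3, and 2 without Luc Aoah 3, Luc Aoah 4, LucOS Aoah 2, LucOS vector 2, LucOS vector 3, Luc vector 1, Luc vector 3 or Luc vector 4.

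Some immune and synthesis lists moved in part. Of 29 type I interferon genes 5 rose, among them the sensors Zbp1 (1.51) and Ifih1 (0.93), and none fell (median 0.51). That count was 2 without Luc Aoah 1, Luc Aoah 4 or any Luc vector tumour, 3 without Luc Aoah 3 or LucOS Aoah 3, 8 without LucOS Aoah 1, 9 without LucOS Aoah 2 and 10 without LucOS vector 2. It was 0 without Luc vector 1 and Luc vector 3, where the limma adjusted p was 0.081 for Zbp1 and 0.073 for Ifih1, and 1 with no filter on low values, by exact permutation, or without Luc Aoah 3 and LucOS Aoah 3. Of 15 listed exhaustion and checkpoint genes 11 were tested and 4 rose, among them the inhibitory receptor Ctla4 (0.75). Ctla4 held 0.40 to 3.58 TPM against 0 to 0.58 TPM with no overlap inside a model. It thus passed the filter through Aoah tumours alone. With 1 TPM required in at least 7 tumours, 1 checkpoint gene rose. Of 15 listed natural killer cell genes only 4 were high enough to be tested, and all 4 rose. The filter could be met by Aoah tumours alone, so this share leans towards rises. Gzma among them is shared with cytotoxic T cells, and the sum overlapped in LucOS. Of 29 cholesterol and fatty acid synthesis genes 7 rose, including the sterol enzymes Hmgcs1 (1.11), Msmo1 (1.26) and Sc5d (1.23; median of the list 0.23), and 1 fell. The rises numbered 3 without Luc Aoah 1, Luc Aoah 4, Luc vector 1, Luc vector 2 or Luc vector 3, and 4 without LucOS vector 3. They numbered 2 without Luc vector 1 and Luc vector 3 together, where Hmgcs1 missed the threshold (limma adjusted p = 0.0516). The falls numbered 0 there, and also without Luc Aoah 1, Luc Aoah 3, Luc Aoah 4, LucOS Aoah 3, LucOS vector 2, LucOS vector 3, Luc vector 1, Luc vector 3 or Luc vector 4. Of 33 cytosolic ribosomal protein genes 9 fell, led by Rps4x (-0.84), and none rose (median -0.32), but 1 fell after scaling to a common median. The falls numbered 5 without Luc Aoah 1, Luc Aoah 3 or Luc vector 3, 4 without LucOS vector 3 or Luc vector 4, and 3 without Luc Aoah 4 or Luc vector 1.

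Leaving out Luc vector 1 and Luc vector 3, the vector tumours with raised Aoah, lowered many list counts beyond those given above. Of 72 list counts above 0, 30 fell by over 1.5 times and 13 of these to 0, while 25 of 148 named called genes missed the threshold. The rises in Kupffer cell genes went from 4 to 0, in endothelial genes (19 tested) from 5 to 1, in monocyte and macrophage genes from 7 to 3, in chemokines from 11 to 5, in checkpoint genes from 4 to 2, in Nrf2 targets from 8 to 4 and in urea cycle and amino acid genes from 10 to 5. The endothelial markers Pecam1, Cdh5 and Stab2 did not pass even with all 14 tumours (limma adjusted p 0.0983, 0.182 and 0.378). The falls in fetal liver and cancer markers went from 13 to 8, in neutrophil genes from 8 to 5, in genes of the unfolded protein response from 8 to 2, in MYC targets from 4 to 0, in complement and coagulation genes from 4 to 1, in lipopolysaccharide recognition genes from 4 to 1 and in cytosolic ribosomal protein genes from 9 to 2. Calls over all genes fell in the same fit from 1118 to 611 rises and from 1050 to 284 falls. Other alternatives lowered list counts too, and the part of the raised Aoah in these losses was not tested. With a replicate block 24 list counts fell by over 1.5 times, 9 of these to 0, and 22 named genes missed the threshold. These numbers were 24, 9 and 18 with no filter on low values and 19, 5 and 17 by exact permutation. Without Luc Aoah 3 and LucOS Aoah 3 they were 13, 4 and 14.

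The largest rises also held 2 small nucleolar RNAs, Snord118 (4.32) and Snord13 (3.75); mature small nucleolar RNAs carry no poly(A) tail, and the libraries were made by poly(A) selection. Snord118 held 26.2, 15.9, 371 and 88.4 TPM against 3.20, 9.77, 0 and 0 TPM in Luc, and 48.1, 21.9 and 14.1 TPM against 0, 3.60 and 0 TPM in LucOS. The highest value was in Luc Aoah 3, the tumour with the high small nucleolar sum. Without Luc Aoah 3 and LucOS Aoah 3, Snord13 no longer passed (3.40, adjusted p = 0.0501).

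The effect was tested for a difference between models in 1 fit of the 4 groups. Of 13466 genes 1 was called (0.00743%), the major urinary protein Mup13. It held 14.4, 42.6, 53.5 and 27.9 TPM with Aoah against 1.40, 0, 0.14 and 1.71 TPM in Luc, and 0.67, 0.92 and 0.29 TPM against 2.65, 2.99 and 0.39 TPM in LucOS. It was thus higher with Aoah in Luc, where the groups did not overlap, and low in all LucOS tumours. The change was 4.28 in Luc and -0.76 in LucOS, a difference of -5.05 (adjusted p = 0.0315). The number of such genes was 2 without LucOS vector 3, 1 without Luc Aoah 1 or Luc vector 4, and 0 without any of the other 11 tumours.

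The authors also deposited a table of their own comparison for each model, whose sign was read from Aoah. Of the called genes 2065 were listed in both of the authors' deposited tables, and 315 of them (227 higher, 88 lower) had an adjusted p under 0.05 and the same sign in both. Singly, 1809 did so in the Luc table and 330 in the LucOS table. The authors' deposited tables gave Inmt changes of 6.59 in Luc and 5.56 in LucOS, and Socs3 changes of -2.95 and -2.04. For Reg3b the authors' deposited tables gave -8.26 in Luc and -3.46 in LucOS, the latter with an adjusted p of 0.540.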

How the data were processed

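Polyadenylated RNA of 14 whole tumours was sequenced and quantified by the authors with RSEM on mm39, per the submitters' processing notes; aligner, annotation and strand use are not given in the sources used here, so overlapping and antisense genes cannot be separated. The deposited gene table holds log2(TPM + 1) values, which were used as deposited. The authors also deposited log2 fold changes with p-values from DESeq2 (named in the submitters' processing notes) for each model, and MiXCR repertoire values (numbers of clones and clonotypes, entropy, clonality and isotype shares). Wald statistics (score) in the authors' deposited tables were not used; 26761 gene IDs of the Luc table and 25742 of the LucOS table matched a symbol.

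Genes at 1 TPM or more in at least 3 tumours were fitted in limma 3.58.1 (R 4.3.3) with model and arm as terms, an intensity trend and robust variances. P-values were adjusted by Benjamini-Hochberg over all 13466 genes, with a threshold of 0.05. A fit with 1 mean per group gave the changes in each model and their difference. Exact two-sided permutation tests exchanged labels within each model. Promoter windows came from RefSeq, whose build (GRCm38.p6) differs from that of the deposited values, and were matched by symbol only (784 of 1118 genes called higher and 769 of 1050 called lower); python 3.11.15 and numpy 2.4.6 were used. Named genes were Aoah, the 12 largest rises and 12 largest falls among called genes with a standard symbol, leaving out antigen receptor segments, the 6 smallest p in each direction, genes called for the difference between models, and up to 3 members with the smallest p of each of 53 gene lists; other genes, such as the remaining members of short counts, were chosen after their values were seen. The comparison and the gene lists were chosen with earlier results of these data known. A pseudocount of 0.1, other filters, scalings and variance settings, a replicate block and the removal of tumours were tried as alternatives. Values of some list members are not reported here.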

Additional observations from a re-analysis of the deposited data

Results flagged for a closer look

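Snord13 read 0 TPM in Luc vector 3, against 31.7, 20.7 and 32.1 TPM in the other 3 Luc vector tumours, on the log2(TPM + 1) scale a larger gap than Dixon's test allows at 95%. It was 1 of 64 groups tested in this way, and chance alone gives about 1 in 20.

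Mup13 changed in different ways in the models: the change in LucOS was lower than that in Luc by 5.05 on the log2 scale (LucOS minus Luc -5.05, limma adjusted p = 0.0315). The difference was tested over all 13466 genes. Mup genes share reads, and the call held in 3 of the 14 fits that each leave out 1 tumour.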

How the results depend on the processing

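The number of genes called higher was 1118; it was 1872 after scaling to a common median, 672 with a replicate block and 611 without the pair of vector tumours with raised Aoah. By exact permutation within model 923 genes were called higher and 700 lower, and 17 of 148 named called genes missed the threshold. The genes lost included Il6, Lbp, Ighm, Nop2 and Timd4. The number called lower was 1050. It was 552 with no filter on low values, 2187 after quantile normalization, 249 with a replicate block, 284 without the pair of vector tumours with raised Aoah, 594 without both Aoah tumours whose composition stood apart, and 475 to 2136 with each tumour left out. The replicate numbers do not pair the tumours: same-numbered tumours correlated at -0.554 to 0.0956, and 1 of 7 numbers correlated best with its own. The number of genes whose effect differed between models was 1. It was 0 with a pseudocount of 0.1, after scaling to a common median, without the pair of vector tumours with raised Aoah and without both Aoah tumours whose composition stood apart, 2 with no filter, and 0 to 2 with each tumour left out. None of the 148 named called genes changed sign under an alternative. The median change over all genes, -0.16, was 0.01 after scaling to a common median, and lower calls outnumbered higher ones after quantile normalization (1620 higher) and without LucOS vector 1 (1210 higher), Luc Aoah 2 (1066), LucOS Aoah 1 (1049) or Luc vector 2 (993). The cause of these shifts was not tested, and depth is unknown.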
